A study of Mus musculus with 4 samples.

Results

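The forkhead genes described here are Foxp1, Foxo1, Foxo3, Foxn3, Foxj2, Foxj3, Foxk1 and Foxp4, 8 of the 21883 protein-coding genes of the mouse genome build mm10. They were chosen by name, with earlier results of these data known. Every Runx3 peak whose summit lay in the RefSeq span of one of them, or up to 10 kb outside it, was counted as a peak of that gene. This gave 37 of 13166 peaks from chromatin immunoprecipitation (ChIP) and 40 of 15891 peaks from CUT&RUN, in which an antibody-tethered nuclease releases the DNA around its target. Both libraries came from CD8 T cells of wild type adult mouse spleen, taken with beads against CD8a, and both used a rabbit antiserum against Runx3. The ChIP library pooled 50000000 frozen cells of 5 mice, and the CUT&RUN library used 150000 fresh cells of 1 mouse. A whole cell extract served as control of the ChIP list. A CUT&RUN library with normal rabbit serum was not analysed here. There was 1 library per assay, so no difference between the assays has a replicate check, and assay, mice, cell number and peak calling changed together. A peak's height is given as its pileup, the number of distinct fragments over the summit, with an exact 95% Poisson interval that covers counting error only.

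Forkhead proteins bind DNA through a winged helix domain. FOXO factors are phosphorylated by AKT downstream of antigen receptor and cytokine signals, bind 14-3-3 proteins and leave the nucleus; in resting naive T cells they stay nuclear and activate Il7r and Klf2, genes of survival and recirculation. FOXP1 keeps naive T cells quiescent, and Runx3 is a factor of the CD8 lineage. The data measure where Runx3 was found, not how strongly any of these genes was expressed.

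The 250 bases before the start are shown for the 3 genes with a summit at most 105 bp from a listed start and for Foxp4, which had no peak. The letters are from RefSeq (GRCm38.p6, which is mm10), in the direction of transcription. Capitals mark the bases inside the called peak, for Foxo3 inside the peaks of both lists, for Foxo1 inside the CUT&RUN peak and for Foxj3 inside the ChIP peak.
Foxo3, chr10:42276696-42276945, minus strand: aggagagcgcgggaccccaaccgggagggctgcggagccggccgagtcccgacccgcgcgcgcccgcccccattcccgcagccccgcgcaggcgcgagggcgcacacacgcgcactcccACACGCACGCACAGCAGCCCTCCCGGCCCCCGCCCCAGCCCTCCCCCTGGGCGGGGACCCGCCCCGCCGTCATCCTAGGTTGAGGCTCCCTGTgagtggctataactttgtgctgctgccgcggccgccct
Foxo1, chr3:52268087-52268336, plus strand: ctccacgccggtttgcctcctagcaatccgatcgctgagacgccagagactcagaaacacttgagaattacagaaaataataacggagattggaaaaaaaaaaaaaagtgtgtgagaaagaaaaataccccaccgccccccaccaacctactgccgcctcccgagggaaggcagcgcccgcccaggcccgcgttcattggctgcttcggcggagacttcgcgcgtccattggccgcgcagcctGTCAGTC
Foxj3, chr4:119539411-119539660, plus strand: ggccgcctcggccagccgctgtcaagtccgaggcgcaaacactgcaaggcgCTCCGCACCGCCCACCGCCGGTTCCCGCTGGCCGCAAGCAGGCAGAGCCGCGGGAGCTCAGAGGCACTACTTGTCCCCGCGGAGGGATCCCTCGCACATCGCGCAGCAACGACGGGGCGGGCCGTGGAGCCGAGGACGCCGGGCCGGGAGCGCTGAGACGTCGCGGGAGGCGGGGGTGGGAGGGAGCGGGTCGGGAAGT
Foxp4, chr17:47924633-47924882, minus strand: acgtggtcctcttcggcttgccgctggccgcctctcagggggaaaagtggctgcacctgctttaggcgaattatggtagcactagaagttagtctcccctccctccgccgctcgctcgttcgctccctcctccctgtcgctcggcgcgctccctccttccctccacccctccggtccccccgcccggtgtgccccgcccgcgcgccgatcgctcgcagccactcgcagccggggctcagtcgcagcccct

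These windows were searched on both strands for the RUNX cores TGTGGT and TGCGGT, the forkhead core TGTTTAC and the ETS core CCGGAAG, none of which contains another. None of the 4 windows held any of these letters. Over the 32851 promoters of the RefSeq table, 14.0% held TGTGGT, 5.10% TGCGGT, 3.17% TGTTTAC and 6.91% CCGGAAG, and 18.6% held at least 1 of the RUNX cores. The windows of Foxo3, Foxj3 and Foxp4 were rich in G and C (76.4%, 74.4% and 69.6%, and 56% for Foxo1, against a median of 52.4% over all promoters). Of the other members with a listed start, Foxp1 had the single match, TGCGGT on the opposite strand at positions -58 to -53 from its most upstream listed start, where neither list had a peak. Foxk1 has no entry in the promoter table.

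Runx3 peaks were found at 7 of the 8 genes in ChIP and at 6 in CUT&RUN. The same 6 genes, Foxp1, Foxo1, Foxo3, Foxn3, Foxj2 and Foxk1, had peaks in both lists, and in each of them at least 1 peak was common to the lists by overlap. Foxj3 had peaks in ChIP alone and Foxp4 had none. Over all protein-coding genes, 40.2% had a ChIP peak by the same rule, 45.1% a CUT&RUN peak, 34.9% a peak in each list and 31.5% an overlapping pair. All 8 genes are longer than most. Over the 8583 protein-coding genes at least as long as Foxj2, the shortest member (25.2 kb), the corresponding shares were 48.2%, 53.6%, 42.0% and 38.1%. The 8 genes were chosen with earlier results of these data known, so their counts are not independent of the data. With so few genes and 1 library per assay, the difference from these shares was not tested.

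**Figure D1:**
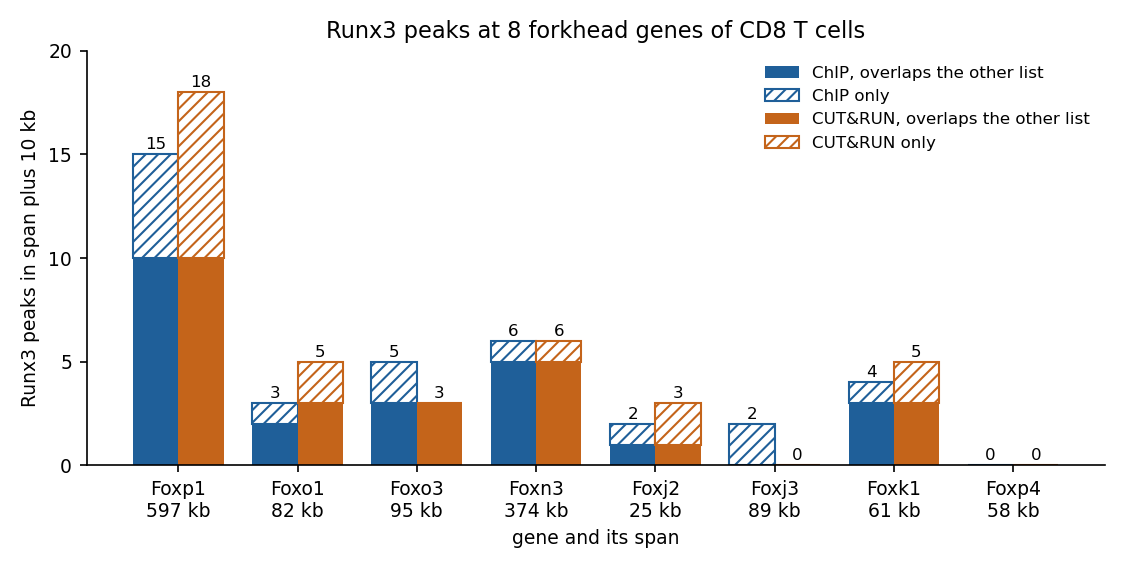
Runx3 peaks (vertical axis, number of peaks in the gene span plus 10 kb on each side) for each of the 8 forkhead genes, with the span of the gene under its name; blue bars are ChIP, orange bars CUT&RUN, and the filled part overlaps a peak of the other list. Foxp1 has 15 and 18 peaks, Foxn3 has 6 in each list, and Foxp4 has 0.

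Foxp1 held the most peaks of the 8, and its peaks were gathered in 1 part of the gene. This gene (chromosome 6, 98925342 to 99522746, 597 kb, minus strand) had 15 ChIP and 18 CUT&RUN peaks, of which 10 and 10 overlapped. The ChIP list was called at a looser q, and with q of 1e-05 or less Foxp1 had 9 ChIP peaks. The CUT&RUN list was already called at 1e-05, so its 18 peaks stayed by construction. With Foxp1 itself counted, 7 protein-coding genes had at least as many ChIP peaks and 2 at least as many CUT&RUN peaks. Of the 136 other protein-coding genes of similar span (at most 20% shorter or 25% longer than Foxp1), none had as many in either list, 39.7% had any ChIP peak and 37.5% any CUT&RUN peak. The length of the gene matters for this count: per 100 kb of window, Foxp1 had 2.43 ChIP and 2.92 CUT&RUN peaks. Foxk1 (4.97 and 6.21), Foxj2 (4.43 and 6.64) and Foxo1 (2.95 and 4.91) had more in both lists. Foxo3 had more in ChIP (4.35) and fewer in CUT&RUN (2.61). Foxn3 (1.52 in each), Foxj3 (1.83 and 0) and Foxp4 had fewer in both.

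RefSeq lists 3 starts for Foxp1, at 1.75, 256 and 494 kb from the 5′ end of its span. Between the most upstream and the middle start, a stretch of 254 kb, lay 14 of the 15 ChIP summits and 16 of the 18 CUT&RUN summits. The next stretch, of 238 kb down to the last start, held 0 and 2, and the last 103 kb held 1 and 0. No summit lay at a listed start: the nearest were 3.63 kb away in ChIP and 3.09 kb in CUT&RUN. The peaks of Foxp1 are therefore inside the gene and away from its listed starts in both lists. The gene table gives no exons, so positions inside genes were not split into exons and introns.

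The best ChIP peak of Foxp1, with its summit at 99435267, 87.5 kb from the 5′ end, had 33 fragments (22.7 to 46.3) and ranked 501 of 13166. Its CUT&RUN partner at 99435274, 7 bp away, had 47 fragments (34.5 to 62.5) and ranked 3837 of 15891. The best CUT&RUN peak lay nearer to the 5′ end, 36.3 kb inside the gene at 99486454, with 83 fragments (66.1 to 103) and rank 743. The order of the lists differed here, because the ChIP peak at that place, at 99486424, had 11 fragments (5.49 to 19.7) and ranked 7663. A further pair stood high in both lists: at 99498292 in ChIP with 20 fragments (12.2 to 30.9, rank 2205) and at 99498324 in CUT&RUN with 48 (35.4 to 63.6, rank 1998). Another pair, at 99389094 with 25 ChIP fragments (16.2 to 36.9) and at 99389141 with 38 CUT&RUN fragments (26.9 to 52.2), lay 134 kb from the 5′ end.

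Among the other Foxp1 peaks were those of a single list. All 5 ChIP peaks without a partner had 9 to 12 fragments, at or under that list's median of 12, where the lowest value was 7. The 8 CUT&RUN peaks without a partner had 13 to 35 fragments, on both sides of that list's median of 25. Those at 99261559 and 99394996 had 35 each (24.4 to 48.7), and the first of these lay 4.96 kb downstream of the middle start.

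**Figure D2:**
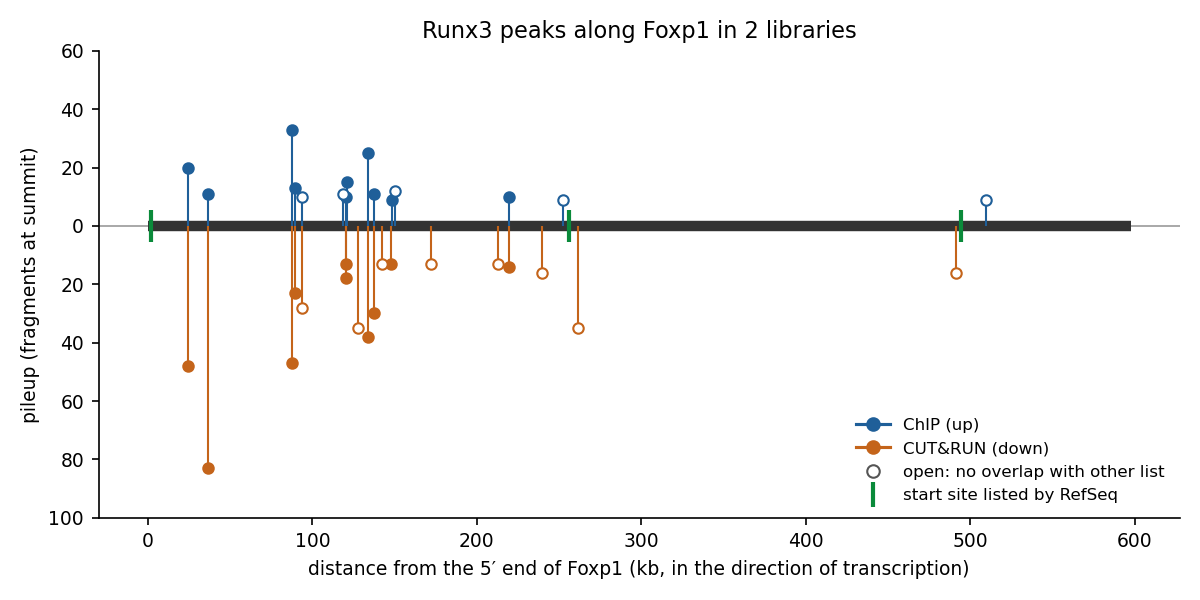
Runx3 peaks along Foxp1, by distance of the summit from the 5′ end of the gene span (horizontal axis, kb) and pileup (vertical axis, fragments; ChIP upward, CUT&RUN downward, heights not comparable between assays); the dark bar is the gene, green ticks are starts listed by RefSeq, and open points have no overlap with the other list. Of the ChIP and CUT&RUN summits, 14 of 15 and 16 of 18 lie between the first and second tick.

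Foxp4, the other FOXP gene among the 8, showed no Runx3 peak. Within the 57.5 kb of the gene (chromosome 17, 47867133 to 47924632) and 10 kb around it neither list had a summit, and widening to 50 kb added none. The nearest summits in each list lay 127 kb from the gene, at 47739732 in ChIP (13 fragments, 6.92 to 22.2) and at 47739692 in CUT&RUN (22 fragments, 13.8 to 33.3). The lists hold only called peaks, so weaker signal at Foxp4 cannot be seen here. Of the FOXP genes outside the 8, Foxp2 has a span of 541 kb, close to that of Foxp1, and had no peak in either list. Foxp3, which encodes the factor of regulatory T cells, had 1 ChIP peak of 11 fragments (5.49 to 19.7) that overlapped CUT&RUN, and 3 CUT&RUN peaks, the best of 34 (23.6 to 47.5).

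Foxo1, the main FOXO factor of naive T cells, had its strongest peak near the 3′ end of the gene and a weak one at its start. The gene (chromosome 3, 52268337 to 52350109, 81.8 kb, plus strand) had 3 ChIP and 5 CUT&RUN peaks. The ChIP summit at 52343753, 75.4 kb from the start and 6.36 kb before the other end, had 24 fragments (15.4 to 35.7) and ranked 1317. The ChIP peak was broad (834 bp) and covered CUT&RUN summits at 52343729 (80 fragments, 63.4 to 99.6, rank 821) and 52344095 (17 fragments, 9.90 to 27.2). Another CUT&RUN peak, at 52343381 with 19 fragments (11.4 to 29.7), lay just outside it. In this place CUT&RUN thus called 3 narrow peaks where ChIP called 1.

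A second pair lay 12.5 kb inside Foxo1, at 52280876 in ChIP (13 fragments, 6.92 to 22.2) and at 52280867 in CUT&RUN (22 fragments, 13.8 to 33.3), with summits 9 bp apart. Near the start the lists did not meet. CUT&RUN had a summit at 52268333, 4 bp before the start, with 14 fragments (7.65 to 23.5) and rank 14982 of 15891, so that only 7 of the 250 bases printed above fall inside this peak. ChIP had a summit 2.46 kb inside the gene, with 12 fragments (6.20 to 21.0). Outside the window, a shared pair lay 46.4 and 46.5 kb beyond the gene, with 24 ChIP fragments (15.4 to 35.7) and 52 CUT&RUN fragments (38.8 to 68.2).

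Foxo3 differed from Foxo1 in where its peaks lay: all were within 7.28 kb of the start of the gene. In this gene (chromosome 10, 42181845 to 42276695, 94.9 kb, minus strand), the 5 ChIP and 3 CUT&RUN summits lay between 1.19 kb before the start and 7.28 kb inside. All 3 CUT&RUN peaks had ChIP partners. The pair in the printed promoter lay at 42276800 in ChIP (9 fragments, 4.11 to 17.1) and at 42276779 in CUT&RUN (28 fragments, 18.6 to 40.5), and 93 of the 250 bases fall inside both peaks. A second pair lay before the start, at 42277872 in ChIP (9 fragments) and 42277881 in CUT&RUN (26 fragments, 17.0 to 38.1). The best-ranked pair lay inside the gene, at 42269415 (10 fragments, 4.79 to 18.4) and 42269469 (35 fragments, 24.4 to 48.7).

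The ChIP peaks of Foxo3 had 8 to 10 fragments, all under the list's median of 12, and none had a q of 1e-05 or less. In CUT&RUN its peaks had 26 to 35 fragments, all above that list's median of 25. A noncoding RNA gene, Gm38485, overlaps Foxo3. The best-ranked pair, at 42269415 and 42269469, lay inside Gm38485, 5.39 and 5.34 kb from its end. The ChIP summits at 42274105 and 42275051 lay 704 and 242 bp from that end. None of these peaks can be assigned to Foxo3 alone. Foxo4, a further FOXO gene outside the 8, had 1 overlapping pair of 8 ChIP fragments (3.45 to 15.8) and 23 CUT&RUN fragments (14.6 to 34.5), and Foxo6 had no peak.

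Foxk1, whose protein is known to repress autophagy genes and to act in glucose use, had more peaks than most genes of its length. This gene (chromosome 5, 142401497 to 142462015, 60.5 kb) had 4 ChIP and 5 CUT&RUN peaks, with 3 of each shared. Of the 1770 other protein-coding genes of similar span, in the same range, 62 (3.50%) had as many ChIP peaks and 41 (2.32%) as many CUT&RUN peaks. The best pair lay inside, at 142440902 in ChIP (26 fragments, 17.0 to 38.1, rank 1074) and 142440911 in CUT&RUN (72 fragments, 56.3 to 90.7, rank 1807), and a weaker pair (11 and 25 fragments) lay beside it. One more pair, at 142463830 (17 fragments, 9.90 to 27.2) and 142463953 (22 fragments, 13.8 to 33.3), lay 1.82 and 1.94 kb outside Foxk1 and inside the neighbouring gene Ap5z1. ChIP alone had a peak at the lower end of Foxk1, 69 bp outside it, with 13 fragments (6.92 to 22.2), and CUT&RUN alone had peaks inside with 22 and 32 fragments. Foxk2, the closest relative of Foxk1, has a span of 49.9 kb and had no peak in either list.

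Foxn3, a repressor linked to cell cycle checkpoints, had 6 peaks in each list, and the lists matched at 5 of them. The gene (chromosome 12, 99190081 to 99563667, 374 kb, minus strand) had its best ChIP peak at 99468271 (18 fragments, 10.7 to 28.4, rank 2603), with a CUT&RUN partner at 99468254 (43 fragments, 31.1 to 57.9, rank 4028). Its best CUT&RUN peak, at 99329451 (44 fragments, 32.0 to 59.1, rank 3264), had a ChIP partner of 13 fragments (6.92 to 22.2). This pair also lay inside the noncoding gene Gm46371, 1.23 kb (CUT&RUN) and 1.26 kb (ChIP) from its end. A pair 1.07 and 1.08 kb outside the 5′ end, with 14 and 31 fragments, lay in the noncoding gene Gm26839, and a pair of 9 and 16 fragments lay 64 and 54 bp from an end of Gm51999, a short gene inside Foxn3. The 5 pairs of summits were 6 to 26 bp apart.

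Higher than all of these was a pair just beyond the window of Foxn3, 13.2 kb outside the gene, with 23 ChIP fragments at 99576851 (14.6 to 34.5) and 80 CUT&RUN fragments at 99576887 (63.4 to 99.6). Its CUT&RUN interval lies above that of the best Foxn3 peak, and its ChIP interval overlaps it. The pair lies in Gm26839 and is not among the 37 and 40 peaks. Foxn2, a relative outside the 8, had 1 ChIP peak of 26 fragments (17.0 to 38.1) and 2 CUT&RUN peaks, the best of 39 (27.7 to 53.3).

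Foxj2 and Foxj3, a pair of related factors less studied in T cells, had 2 ChIP peaks each, fewer than the other occupied genes. In CUT&RUN Foxj2 had 3, as many as Foxo3. Foxj2 (chromosome 6, 122820184 to 122845366, 25.2 kb, plus strand) had 2 ChIP peaks, both outside the gene by 9.14 and 8.36 kb, with 10 fragments each (4.79 to 18.4). The first, at 122811047, had a CUT&RUN partner at 122811061 with 47 fragments (34.5 to 62.5, rank 3232). These summits lay 8.68 and 8.70 kb from an end of Slc2a3, the gene of a glucose transporter, and so nearer to it than to Foxj2. Inside Foxj2 only CUT&RUN had peaks, 0.751 kb from the start (29 fragments, 19.4 to 41.6) and 6.16 kb from it (16 fragments, 9.14 to 26.0). With the gene span alone, Foxj2 had no ChIP peak.

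Foxj3 (chromosome 4, 119539661 to 119629119, 89.5 kb, plus strand) had 2 ChIP peaks and no CUT&RUN peak. The summit at 119595404, 55.7 kb inside the gene, had 16 fragments (9.14 to 26.0) and ranked 3570. The other, 47 bp after the start, had 8 fragments (3.45 to 15.8) and ranked 12011 of 13166, and its peak covers 199 of the 250 bases printed above. The nearest CUT&RUN summit lay 105 kb from the gene.

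**Figure D3:**
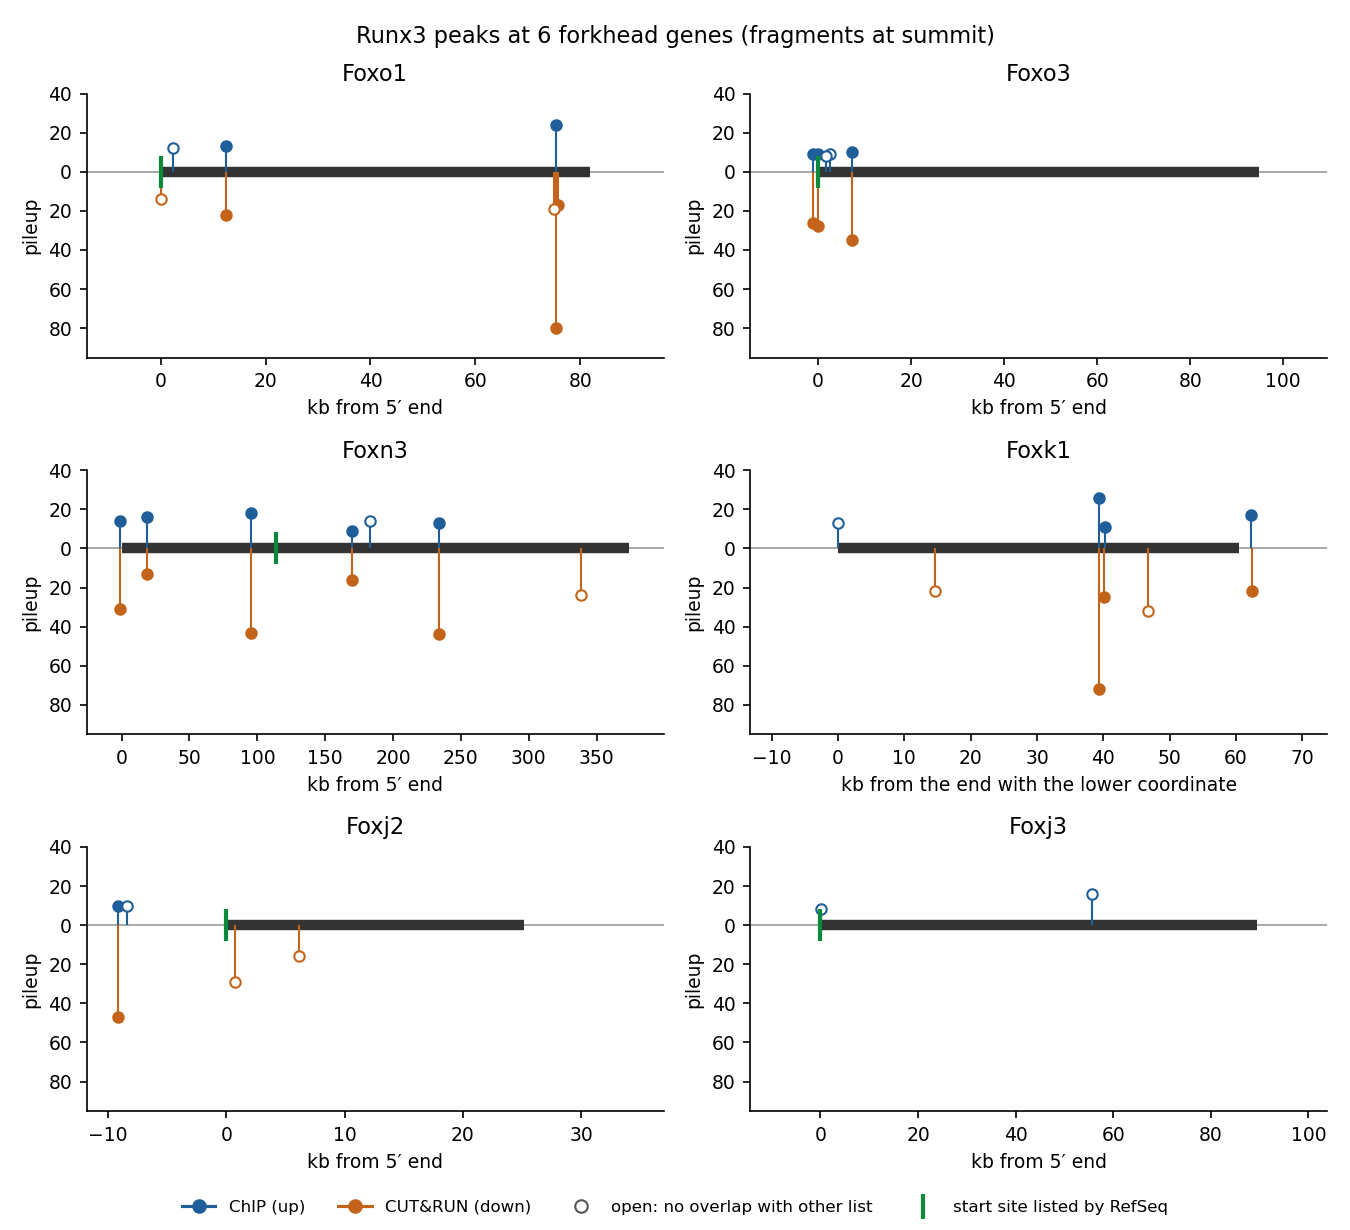
Runx3 peaks at Foxo1, Foxo3, Foxn3, Foxk1, Foxj2 and Foxj3, by distance of the summit from the 5′ end of the gene span (kb; for Foxk1 from the end with the lower coordinate) and pileup (fragments; ChIP upward, CUT&RUN downward, heights not comparable between assays); dark bars are genes, green ticks listed starts, and open points have no overlap with the other list. The peaks of Foxo3 lie within 7.28 kb of its start, and the highest peaks of Foxo1 lie 75.4 kb inside.

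Ordered by the best peak of each gene, Foxp1, Foxk1 and Foxo1 led in ChIP with 33, 26 and 24 fragments, followed by Foxn3 (18), Foxj3 (16), Foxo3 and Foxj2 (10 each). In CUT&RUN, Foxp1, Foxo1 and Foxk1 led with 83, 80 and 72 fragments, followed by Foxj2 (47), Foxn3 (44) and Foxo3 (35). In each list the intervals of all neighbours in this order overlapped. The intervals of Foxp1 and Foxo3 did not overlap, in ChIP (22.7 to 46.3 against 4.79 to 18.4) or in CUT&RUN (66.1 to 103 against 24.4 to 48.7). These are the best of unlike numbers of peaks, 15 and 18 at Foxp1 and 5 and 3 at Foxo3. The intervals do not cover this choice of the best peak. The median pileup of Foxp1 was 11 in ChIP, against 9 for Foxo3. In CUT&RUN it was 20.5 for Foxp1 and higher, 28, for Foxo3. Foxp1, Foxo1 and Foxk1 held the best peaks in both lists.

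**Figure D4:**
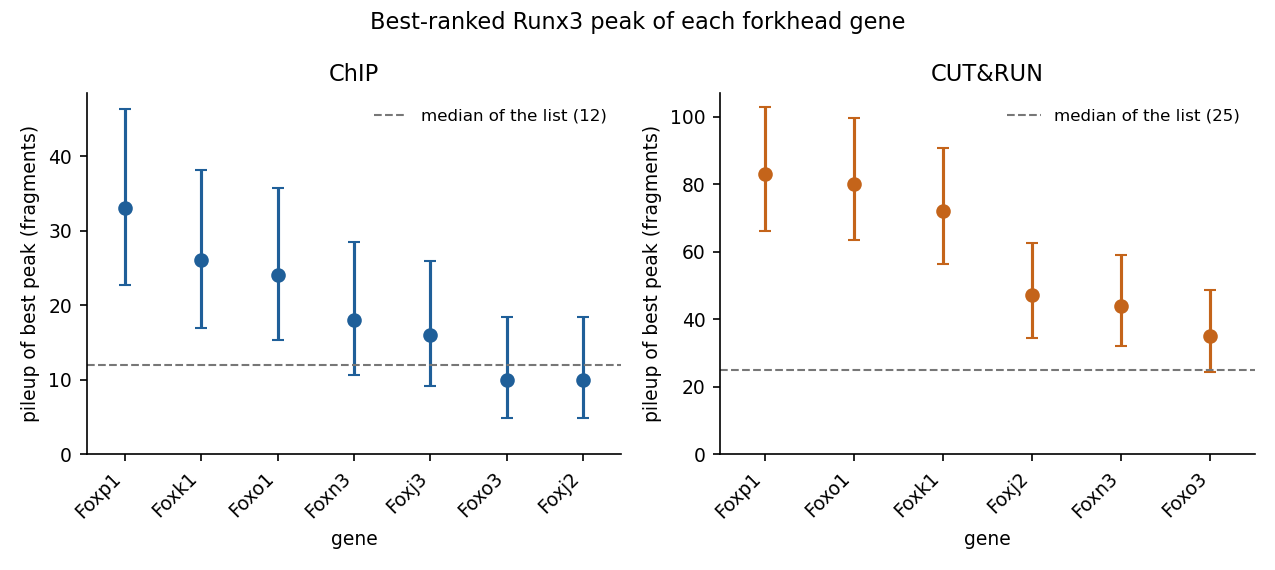
Pileup of the best-ranked Runx3 peak of each occupied forkhead gene (vertical axis, fragments, from 0) in ChIP and CUT&RUN, with exact 95% Poisson intervals as bars and the median of each whole list as a dashed line. Foxp1, Foxo1 and Foxk1 stand highest in both, and neighbouring intervals overlap.

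As a group, the forkhead peaks were of ordinary height. Their median pileup was 11 in ChIP and 24.5 in CUT&RUN, against 12 and 25 for the whole lists. In ChIP 3 of 37 stood in the top 10% of the list (2 of Foxp1 and 1 of Foxk1), and in CUT&RUN 2 of 40 did (at Foxp1 and Foxo1). Of the ChIP peaks, 24 of 37 overlapped a CUT&RUN peak (64.9%, exact 95% Clopper-Pearson interval 47.5 to 79.8), against 66.2% of the whole list. Of the CUT&RUN peaks, 25 of 40 overlapped a ChIP peak (62.5%, 45.8 to 77.3), against 58.8%. Both shares of the whole lists lie inside these intervals. Overlapping peaks had a median of 13 ChIP fragments and 28 CUT&RUN fragments, and those of 1 list had 10 and 19. The 25 overlapping pairs had summits a median of 26 bp apart, and 19 lay within 50 bp (76%, against 59.5% of the 9358 pairs of the whole lists). No interval was computed for the 76%, which rests on 25 pairs, and the difference was not tested.

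Few of the summits lay at the ends of the forkhead genes. Within 1 kb of an end of its own gene were 3 of 37 ChIP summits (8.11%; Foxo3, Foxj3 and Foxk1) and 3 of 40 CUT&RUN summits (7.5%; Foxo1, Foxo3 and Foxj2). Over all protein-coding genes at least as long as Foxj2, 31.1% of the ChIP summits and 31.2% of the CUT&RUN summits in their windows did. Foxp1 alone, with none, makes up 15 of the 37 and 18 of the 40. Within 2 kb of an end there were 7 and 6. Counted by gene, 2 of the 7 members with a listed start had a ChIP summit within 1 kb of it and 3 had a CUT&RUN summit, and Foxo3 had both. Over the 17491 protein-coding genes with a listed start, these shares were 24.5%, 28.8% and 19.7%.

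Most genes of the rest of the forkhead family are short, and most had no peak. Of 36 other forkhead genes, with a median span of 3.99 kb, 7 had a ChIP peak, 8 a CUT&RUN peak and 6 both, beside 40.2%, 45.1% and 34.9% of all protein-coding genes. Beside those named above, Foxh1 had the highest CUT&RUN peak (72 fragments, 56.3 to 90.7; ChIP 18, 10.7 to 28.4). Foxc2 and Foxr2 had 1 pair each, with 10 and 8 ChIP fragments. The windows of such short genes mostly cover their surroundings. Foxa3 and Foxj1 had a peak in CUT&RUN alone, and Foxm1, a factor of dividing cells, in ChIP alone. The remaining 27 had none.

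Genes upstream and downstream of FOXO factors carried Runx3 peaks as well. Of 17 genes that control FOXO proteins (kinases, 14-3-3 proteins, and export and ubiquitin factors among them), 16 had a ChIP peak and 15 a CUT&RUN peak, with a median of 2 peaks per gene in each list. The shares were 40.2% and 45.1% over all protein-coding genes and 48.2% and 53.6% over those at least as long as Foxj2; the median span of the 17 genes was 50.2 kb. Ywhag, a 14-3-3 gene, Stk4, the gene of the MST1 kinase, Sgk1 and Pik3cd ranked best in ChIP with 40, 35, 33 and 31 fragments. Pik3cd, Akt2, Sgk1 and Stk4 ranked best in CUT&RUN with 121, 113, 87 and 92. Tsc1 had a peak in ChIP alone, and Usp7 had none.

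All of 19 genes known as FOXO targets or genes of naive quiescence had a peak in each list, and 17 had an overlapping pair, with medians of 4 ChIP and 3 CUT&RUN peaks per gene. Lef1, Btg1, Slfn2 and Ccnd3 ranked best in ChIP with 45, 40, 40 and 33 fragments, and Lef1, Ccnd3, Pik3ip1 and Ccr7 in CUT&RUN with 141, 127, 107 and 101. Bcl6 and Cdkn1b had peaks in both lists that did not overlap. Over all protein-coding genes, 34.9% had a peak in each list and 31.5% an overlapping pair. Both gene lists were composed with earlier results of these data known.

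By the smallest sum of differences in 3 counts (ChIP peaks, CUT&RUN peaks and overlapping ChIP peaks) among genes of similar span, the genes most like Foxp1 were Nfia (6, 8 and 5), Prkce (6, 8 and 4) and Dock2 (7, 4 and 4), all far below its 15, 18 and 10. For Foxn3 (6, 6 and 5) they were Med12l, with equal counts, Cdh23 (6, 7 and 6) and Scfd2 (5, 7 and 5). This likeness rests on counts in 2 libraries.

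For the cell type, all 8 marker genes of CD8 T cells had peaks in both lists, as had 3 of 8 B cell, 0 of 8 myeloid and 2 of 8 erythroid markers, beside 34.9% of all protein-coding genes. Peaks show occupancy and do not show which cells were present. ChIP kept 9532996 of 48285251 fragments after duplicates were removed, and CUT&RUN 14068364 of 17896991.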

How the data were processed

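Per the submitters' processing notes, the authors aligned reads with Bowtie to mm10 and called peaks with MACS2. Per the file headers, MACS2 2.1.1.20160309 used paired-end fragments with a maximum of 1 per position. The q threshold was 0.05 for ChIP, with the whole cell extract as control, and 1e-05 for CUT&RUN, with no control and on an alignment named for nucleosome-free fragments. Libraries were not pooled. The deposited lists give the pileup (a coverage signal), −log10 p and −log10 q values, and the fold (a ratio over expected background). These are the authors' values for each peak and were used only within a list.

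Peaks were ranked by q, then pileup. Gene spans and promoters came from RefSeq tables of GRCm38.p6 (49939 genes; 8 of 8 members matched, 7 with a promoter entry). Lists overlapped at 1 bp or more (checked with bedtools 2.31.1; the overlap and window counts were tested on simulated data). Python 3.11.15 with scipy 1.17.1 gave the intervals. There are no p-values, since each assay had 1 library. All 8 members were described, with best peaks and those nearest gene ends. Of the other forkhead genes those with a peak were to be named, of the FOXO lists the 4 best ranked per list and those without any peak. Foxp2, Foxk2, Foxo6, Tsc1, Bcl6 and Cdkn1b were named after their values were seen. An entry of each FOXO list is not reported here. The members and lists were chosen with earlier results of these data known. Alternatives were gene window, threshold, overlap and distance to gene ends.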

Additional observations from a re-analysis of the deposited data

How the results depend on the processing

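The count of members with a peak (7 in ChIP, 6 in CUT&RUN, 6 in both) stayed within 1.5 times its value under the gene span alone, a 50 kb window, q of 1e-05 or less and the stronger 0.5 of each list. The lowest values were 5, 6 and 4, at q of 1e-05 or less and in the stronger 0.5, where Foxo3 and Foxj2 had no ChIP peak. The shares over all protein-coding genes were not recounted at these settings. At q of 1e-05 or less, ChIP member peaks fell from 37 to 22, and the 15 of Foxp1 fell to 9. The CUT&RUN list was called at this q, so its counts could not change. Of its member peaks, 42.5% (17 of 40) overlapped a ChIP peak, below the interval of the main share. Fewer ChIP peaks remained by construction. Of the remaining ChIP member peaks, 72.7% (16 of 22) overlapped a CUT&RUN peak, inside the interval of the main share. In the stronger 0.5 of each list, member peaks numbered 18 in ChIP and 19 in CUT&RUN, with 6 and 7 at Foxp1, which still had the most. Within 2 kb of a gene end, 7 ChIP and 6 CUT&RUN summits were counted in place of 3 and 3. With summits within 50 bp, 19 of 37 and 19 of 40 peaks were shared, inside the intervals of the main shares. Overlap shares of the whole lists were not counted under these alternatives. Among the counts of single genes, 4 of 16 moved by over 1.5 times with the gene span alone, 1 with the 50 kb window, 4 at q of 1e-05 or less and 8 in the stronger 0.5. No paired analysis was possible because each group held 1 library, and for the same reason no replicate could be left out. ChIP peaks of 8 to 10 fragments have intervals that reach from 3.45 to 18.4, so their order is not resolved at this depth.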

Other observations

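The local background differed among the forkhead peaks in CUT&RUN. MACS2 gives the fold as the pileup plus 1 over the expected background plus 1. Dividing the pileup plus 1 by the fold therefore gives the background plus 1, not the background itself. This value was the same for all 37 ChIP peaks (2.12, which was also the median of that list), so their folds only restate the pileup. In CUT&RUN it ran from 1.47 to 3.96 over the 40 peaks, against a median of 1.89 in the list. It was highest at the neighbouring Foxk1 peaks at 142440911 and 142441579 (3.91 and 3.96) and at the Foxp1 peak at 99433213 (3.64). The Foxk1 peak of 72 fragments therefore had a fold of 18.7, below the fold of 28.1 of the Foxp1 peak of 48 fragments at 99498324. For CUT&RUN, called with no control, MACS2 takes the background from the surrounding 10 kb of the same library, but never below the genome-wide value. The lowest value, 1.47, recurred at the Foxp1 peaks at 99303250 and 99350688. The ChIP list had the whole cell extract as control.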
